A study of Mus musculus with 6 samples.

Results

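The 9 genes of the interleukin-1 family, namely the ligands Il1a, Il1b, Il18 and Il33, the receptor antagonist Il1rn and the receptor genes Il1r1, Il1r2, Il1rl1 and Il1rap, were followed in intestinal epithelial cells that the labels describe as carrying N-cadherin in place of E-cadherin. The 9 genes were chosen by name as a family, with earlier results of this same comparison known. They were thus selected on the intensities of these same 3 N-cadherin replacement and 3 control arrays. All values of these genes are therefore given as a description: no p-value is printed for them, and a count of them past a threshold supports nothing. Of the 9 genes, 8 had at least 1 probe set that the array's annotation pairs with a single gene, out of 18194 genes with such a probe set, and they had 15 probe sets in all. Il1rl1, the gene of the interleukin-33 receptor, was not analysed here.

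Transcripts were measured on Affymetrix mouse arrays, 1 array for each of 6 samples of small-intestinal epithelial cells from C57BL/6 mice aged 14 days. The 3 N-cadherin replacement samples carried the genotype Ecadflox/Ncad;Vil-Cre: an E-cadherin allele that Cre recombinase can delete, an N-cadherin allele, and Cre driven by the villin promoter, which is active in gut epithelium. The 3 control samples came from E-cadherin-positive littermates, whose alleles the labels do not give. The cells were detached from the underlying tissue with EDTA and vortexing, with no sort, so the fraction can hold other cells than epithelium, and separate animals behind the samples are not stated, so the spread between samples may be technical.

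Interleukin-1 family cytokines are made by epithelial, stromal and immune cells and act in the first phase of inflammation. Interleukin-1 alpha and beta bind the receptor Il1r1, which pairs with the accessory chain Il1rap and signals through Myd88 to NF-kB, while the receptor antagonist encoded by Il1rn occupies Il1r1 without starting a signal. Interleukin-33 is kept in the nucleus of barrier cells and is released on damage, and interleukin-18 is held as a precursor in gut epithelium until caspase-1 cuts it.

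To show the stretches of genome at which the genes with the largest differences start, RefSeq promoter windows of build GRCm38.p6 are printed for annotated starts 1 and 3 of Il1rn and for both annotated starts of Il33. Each window runs from 250 bases before to 50 bases after a transcription start, 5′ to 3′. Capitals mark letters that match either of 2 motifs on either strand, TGANTCA for AP-1 and GGG, any 5 bases and CC for NF-kB, factors that act downstream of interleukin-1 receptors.
Il1rn, start 1 (chr2:24336610-24336909, plus strand): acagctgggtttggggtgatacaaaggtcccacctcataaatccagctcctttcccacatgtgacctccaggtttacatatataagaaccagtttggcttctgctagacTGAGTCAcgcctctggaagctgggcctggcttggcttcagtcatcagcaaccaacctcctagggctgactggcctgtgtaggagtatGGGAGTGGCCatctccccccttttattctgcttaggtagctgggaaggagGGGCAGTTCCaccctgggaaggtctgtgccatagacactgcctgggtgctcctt
Il1rn, start 3 (chr2:24345121-24345420, plus strand): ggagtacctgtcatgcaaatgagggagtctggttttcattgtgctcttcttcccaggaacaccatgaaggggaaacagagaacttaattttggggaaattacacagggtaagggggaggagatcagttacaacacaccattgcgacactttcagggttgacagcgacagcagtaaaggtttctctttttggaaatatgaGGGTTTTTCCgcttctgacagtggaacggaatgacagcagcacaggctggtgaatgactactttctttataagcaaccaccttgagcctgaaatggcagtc
Il33, start 1 (chr19:29924863-29925162, plus strand): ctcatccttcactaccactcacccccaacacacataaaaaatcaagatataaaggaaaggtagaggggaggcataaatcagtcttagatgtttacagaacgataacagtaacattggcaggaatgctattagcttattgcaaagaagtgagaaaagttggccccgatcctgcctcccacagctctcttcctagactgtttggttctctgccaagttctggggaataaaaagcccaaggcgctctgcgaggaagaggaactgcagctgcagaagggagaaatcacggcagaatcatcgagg
Il33, start 2 (chr19:29945540-29945839, plus strand): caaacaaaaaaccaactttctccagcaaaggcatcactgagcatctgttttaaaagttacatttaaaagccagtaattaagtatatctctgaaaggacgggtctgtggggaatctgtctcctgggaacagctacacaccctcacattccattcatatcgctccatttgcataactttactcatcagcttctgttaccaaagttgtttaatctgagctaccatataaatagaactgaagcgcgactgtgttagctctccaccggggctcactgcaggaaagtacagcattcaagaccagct
The window of Il1rn start 1 held 1 AP-1 match, TGAGTCA, whose first base lies at -141 from the start, and 2 NF-kB matches, at -54 and -4. Neither Il33 window held a match to these letters. The window of Il1rn start 3 held 1 NF-kB match, GGGTTTTTCC, at -51, which is shared with the overlapping window of start 2. Among 14 windows of the 9 genes, 2 held an AP-1 match, those of Il1rn start 1 and of Il1a, and 5 held an NF-kB match. Of 32851 promoter windows of the same length, 7.81% held the AP-1 letters and 50.8% the NF-kB letters, and in no window of the 9 genes did the 2 motifs overlap. The motifs were picked after these sequences had been seen, and a match describes letters only.

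Il1rn, the antagonist, was higher on every replacement array in all of its 3 probe sets. Probe set 1451798_at, the one with the highest mean on the log2 scale, had intensities of 404.6, 800.7 and 820.5 in N-cadherin replacement arrays 1 to 3, against 13.0, 7.0 and 9.2 in control arrays 1 to 3. All control arrays thus lay under the floor of 16 intensity units that was set before log2 was taken, and all replacement arrays lay far above it. The geometric mean of the replacement arrays was 643, which is at least 40.2-fold higher than in controls, a log2 difference of at least 5.33 (SE 0.329, n = 3 replacement and 2 control replicates). An SE here is that of the limma fit, which shares the spread across genes, and control 2 and control 3, which were nearly alike, count as 1 replicate. In bulk RNA, more cells of a type and more RNA per cell cannot be told apart. This probe set passed the filter on low values, 3 of 6 arrays at the floor or more, only through its replacement arrays.

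The other Il1rn probe sets went the same way. Probe set 1423017_a_at had 211.6, 565.5 and 409.0 in replacement arrays, against 25.1, 5.5 and 20.7 in control arrays, at least 17.1-fold higher (log2 difference 4.10, SE 0.406), with 2 of 3 control arrays at the floor or more. Probe set 1425663_at had 161.7, 267.1 and 238.7 in replacement arrays, against 60.2, 25.5 and 16.5 in control arrays, 6.19-fold higher (2.63, SE 0.447). In each of the 3 probe sets the groups did not overlap, replacement 1 was the lowest replacement array, and control 1 was the highest control array. The probe sets thus shared the direction and differed in its size, and their mean gave a log2 difference of 4.02.

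Il33, the nuclear alarmin, was also higher on every replacement array. Its single probe set had 462.9, 419.5 and 378.9 in replacement arrays, against 72.6, 17.8 and 18.7 in control arrays. The replacement arrays lay close together, whereas control 1 stood well above the other controls, which were barely over the floor. The geometric means were 419 in replacement and 36.4 in control samples, 11.5-fold higher (log2 difference 3.53, SE 0.477, n = 3 and 2). The value depended on control 1: the log2 difference was 4.52 without control 1 and 2.53 without control 2 and control 3.

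Il18, the ligand held ready in gut epithelium, was bright on all arrays. It had 535.0, 543.3 and 559.2 in replacement arrays, against 306.8, 517.8 and 478.9 in control arrays. The groups did not overlap, but the gap between the lowest replacement array and control 2 was narrow. The log2 difference of 0.48 (SE 0.266, n = 3 and 2) rested on control 1, and without it the difference was 0.13.

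Il1a and Il1b, the ligands of Il1r1, stayed near the floor in both groups. Il1a had 20.0, 24.4 and 13.2 in replacement arrays, against 9.3, 22.2 and 19.3 in control arrays, a log2 difference of 0.12 (SE 0.267). Il1b had 47.2, 24.2 and 32.8 in replacement arrays, against 32.7, 25.9 and 24.8 in control arrays, a log2 difference of 0.22 (SE 0.310). For both genes the groups overlapped and the difference was smaller than its SE.

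The receptor genes were dim. Il1r1, the signalling receptor, had 2 probe sets, which reached 11.8 at most, and Il1r2, a decoy receptor that binds interleukin-1 without signalling, had 14.9, 10.7 and 1.9 in replacement arrays, against 5.5, 0.8 and 0.9 in control arrays. Both genes lay under the floor on all 6 arrays, so no fold is given, and a level under the floor does not show that the transcript is absent. Il1rap, the accessory chain shared by several receptors of the family, had 5 probe sets, of which 2 passed the filter. The probe set that stands for the gene had 35.3, 28.3 and 46.0 in replacement arrays, against 36.7, 31.1 and 36.3 in control arrays, a log2 difference of 0.03 (SE 0.267). The other one that passed gave -0.21 (SE 0.241), the groups overlapped in both, and the 3 remaining probe sets had 19.5 at most.

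**Figure D1:**
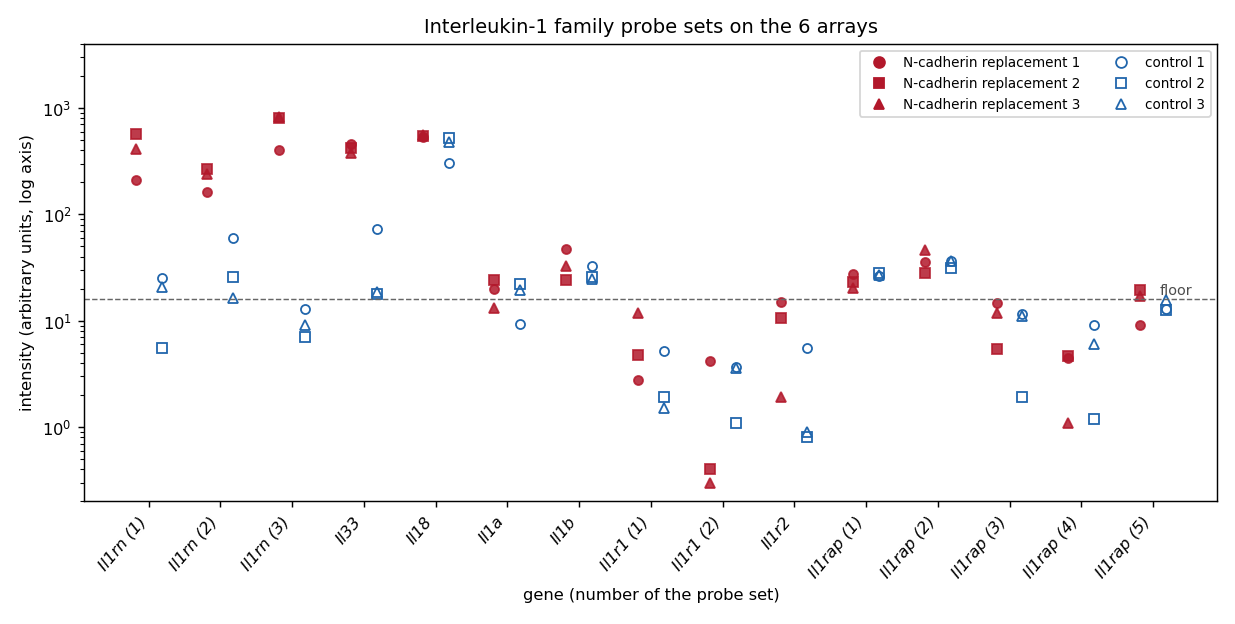
Intensity of the 15 probe sets of 8 genes on each array, on a log axis, with N-cadherin replacement arrays as filled and control arrays as open symbols; the dashed line is the floor of 16. The 3 probe sets of Il1rn and the probe set of Il33 are separated between the groups, Il18 narrowly, while Il1a, Il1b and Il1rap overlap and Il1r1 and Il1r2 lie under the floor.

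As a family, 6 of the 9 genes had a probe set that passed the filter, and 2 of these, Il1rn and Il33, lay past the limma threshold used for the whole table, an adjusted p of 0.05, in the higher direction and 0 in the lower one. Across all 12994 genes tested, 4.46% passed in the higher direction, 4.66% in the lower and 9.12% in either. At an unadjusted limma p under 0.05, 1482 of all genes tested were higher and 1677 lower. In 3 of the 6 genes, Il1rn, Il33 and Il18, every replacement array lay above every control array, as did 17.8% of all genes tested. The median log2 difference was 0.35 over the 6 genes, 0.17 over the 8 with a probe set when no filter was used, and -0.02 over all genes tested. Because the genes were chosen with this contrast known, and Il1rn passed the filter only through its replacement arrays, these counts are no test and nothing is read from them.

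The arrays and labels were checked as follows. Cdh1 had 1073.0, 1174.6 and 1356.6 in replacement arrays, against 2757.4, 2334.8 and 2203.5 in control arrays, while the 2 probe sets of Cdh2 did not reach the floor on any array, with 13.5 at most. Whether these probe sets read the deleted part of Cdh1 or the introduced Cdh2 is not stated in the sources used here, so the Cdh2 values do not bear out the labels and the Cdh1 values do so only in part. Between 55.1% and 61.8% of probe sets on an array reached the floor. Over 5109 bright probe sets the SD of the log2 ratio was 0.1152 between control 2 and control 3, against 0.3466 to 0.5637 for the other pairs within a group, so these were averaged as 1 replicate. Hybridization controls gave 0.0824 for that pair over 18 probe sets and 0.0431 over the 12 brighter ones, both less than 0.1152, so the averaging is a judgement. Control 1, replacement 2 and replacement 3 had more Xist than Eif2s3y and were taken as female, and the other arrays as male.

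Within the sexes, Il1rn was higher in replacement samples both in females (log2 difference 5.66) and in males (4.66), with 2 replacement arrays against 1 control array and 1 against 2. Il33 gave 2.46 in females and 4.67 in males. Il18 gave 0.85 in females, where control 1 is the only control, and 0.10 in males. For Il1b the values were -0.21 in females and 0.90 in males, and for Il1a and Il1rap they lay between -0.05 and 0.30. Each of these rests on 3 arrays and has no test, and whether the sexes differ was not tested.

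**Figure D2:**
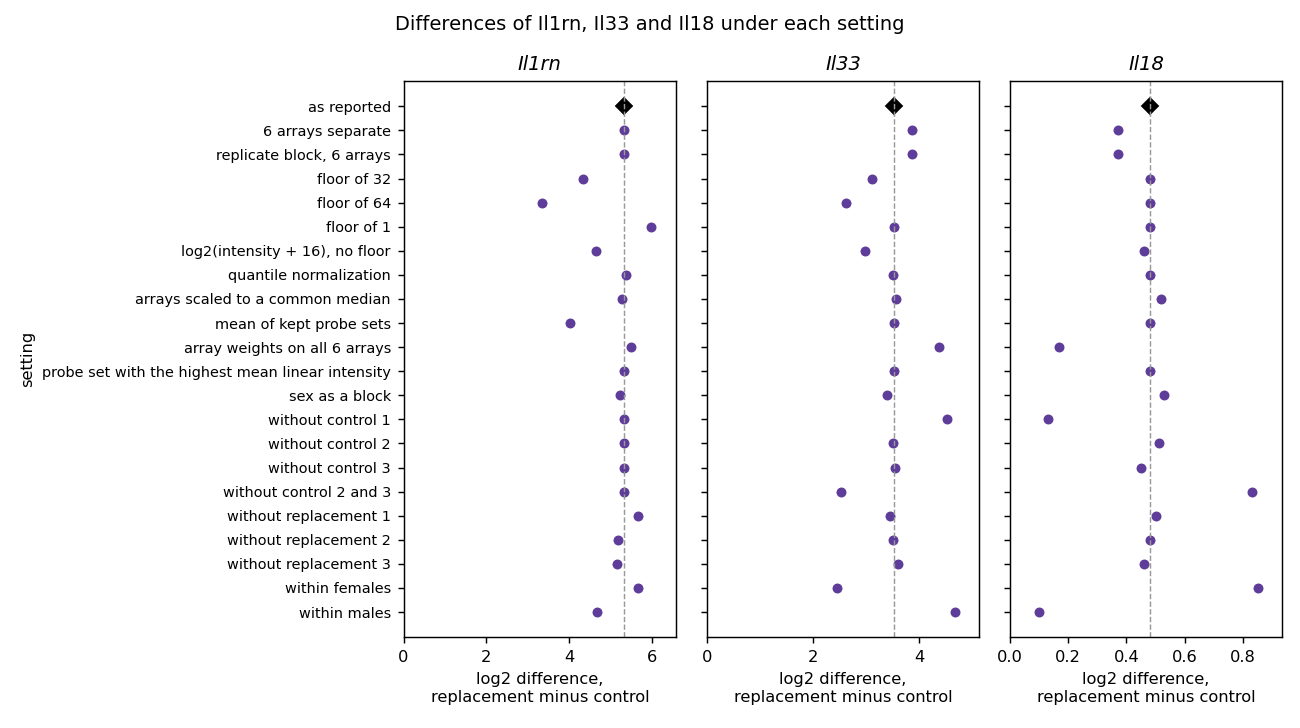
Log2 difference, N-cadherin replacement minus control, of Il1rn, Il33 and Il18 under most ways of processing and within each sex. The diamond and dashed line are the value as reported, and each panel has its own axis. Fits with no filter, with every probe set tested and with the trend and robust options of eBayes gave the reported differences and are not drawn. Il1rn ranged from 3.33 to 5.98, Il33 from 2.46 to 4.67 and Il18 from 0.10 to 0.85. In all 3 the groups did not overlap, so leaving out arrays or splitting by sex could not reverse the sign.

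The detached cells carried epithelial transcripts, as labelled. All 10 epithelial markers, among them Epcam, Vil1 and Cdx2, reached the floor, and their summed intensity was 32003 to 40275 in replacement arrays and 29752 to 31606 in control arrays. Krt20, a keratin of differentiated villus cells, was the only 1 of the 10 that passed the test, with 3797.7, 3167.2 and 3231.1 in replacement arrays, against 1882.3, 925.1 and 945.5 in control arrays (limma adjusted p = 0.0274).

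Markers of other cell types that make or answer interleukin-1 cytokines were set beside the family. The fibroblast list, of cells known as a source of interleukin-33, summed to 379 to 462 in replacement arrays and 194 to 1205 in control arrays, and 0 of its 6 tested genes passed the limma test, adjusted or at an unadjusted p under 0.05. Control 1 held the 1205 and also the highest endothelial sum, 257, among arrays that otherwise ranged from 89.9 to 168. It was also the control array with the most Il33 and the least Il18. The fibroblast sums of the replacement arrays lay under that of control 1 and above those of control 2 and control 3, which were 194 and 197. The part of these cells in the Il33 and Il18 values was not tested.

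Macrophage and dendritic cell markers, from cells known to make Il1b and Il1rn, summed to 1139 to 1888 in replacement arrays and 2771 to 3361 in control arrays. Most of this sum was Csf1r, the receptor of a macrophage growth factor, which fell to 1271.4, 777.1 and 737.6 in replacement arrays, against 2427.0, 2442.5 and 2504.0 in control arrays (log2 difference -1.44, limma adjusted p = 0.0143). It was the only 1 of the 7 tested genes of this list that passed, and without it the other 10 genes summed to 616, 371 and 401 in replacement arrays 1 to 3, against 934, 328 and 297 in control arrays 1 to 3, which overlap. The neutrophil genes S100a8, S100a9 and Cxcr2 lay under the floor on every array, as did the T cell genes Cd3d, Cd3e, Cd3g, Cd2 and Cd8b1. The neutrophil sum was 63.5 to 101 in replacement arrays and 97.1 to 141 in control arrays.

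The list of mast cells and group 2 innate lymphoid cells, which are known to respond to interleukin-33, summed to 148 to 216 in replacement arrays and 97.3 to 130 in control arrays. Of its genes Mcpt2, a mast cell protease, rose to 75.1, 48.9 and 62.2 in replacement arrays, against 18.7, 18.2 and 16.2 in control arrays (log2 difference 1.77, limma adjusted p = 0.00316), while Fcer1a, Ms4a2, Mcpt4 and Gata3 were under the floor on every array. Il7r, a cytokine receptor of lymphoid cells, went the other way, with 20.0, 17.9 and 17.2 in replacement arrays, against 37.3, 25.2 and 22.1 in control arrays, and did not pass (log2 difference -0.69, limma adjusted p = 0.142). Keratinocyte and squamous genes, from a tissue in which Il1rn is known to be high, summed to 143 to 171 in replacement arrays and 111 to 151 in control arrays. Of 4 tested 0 passed the adjusted limma test and 1, Krt6a, had an unadjusted p under 0.05 (log2 difference 0.88, and 1.68 in its other kept probe set). Summed intensities were 122 to 184 in replacement and 130 to 195 in control arrays for T cells, 81.5 to 114 and 79.5 to 117 for B cells, 190 to 289 and 272 to 456 for smooth muscle and glia, and 96.3 to 130 and 66.7 to 87.3 for tuft cells. In these lists S100b, a glial marker, fell to 19.5, 33.6 and 32.7 in replacement arrays, against 103.4, 74.5 and 72.7 in control arrays (log2 difference -1.65, limma adjusted p = 0.0109). The tuft cell gene Avil gave 0.77 on floored values and did not pass (limma adjusted p = 0.149). The part of any of these cells in the Il1rn and Il33 values was not tested.

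**Figure D3:**
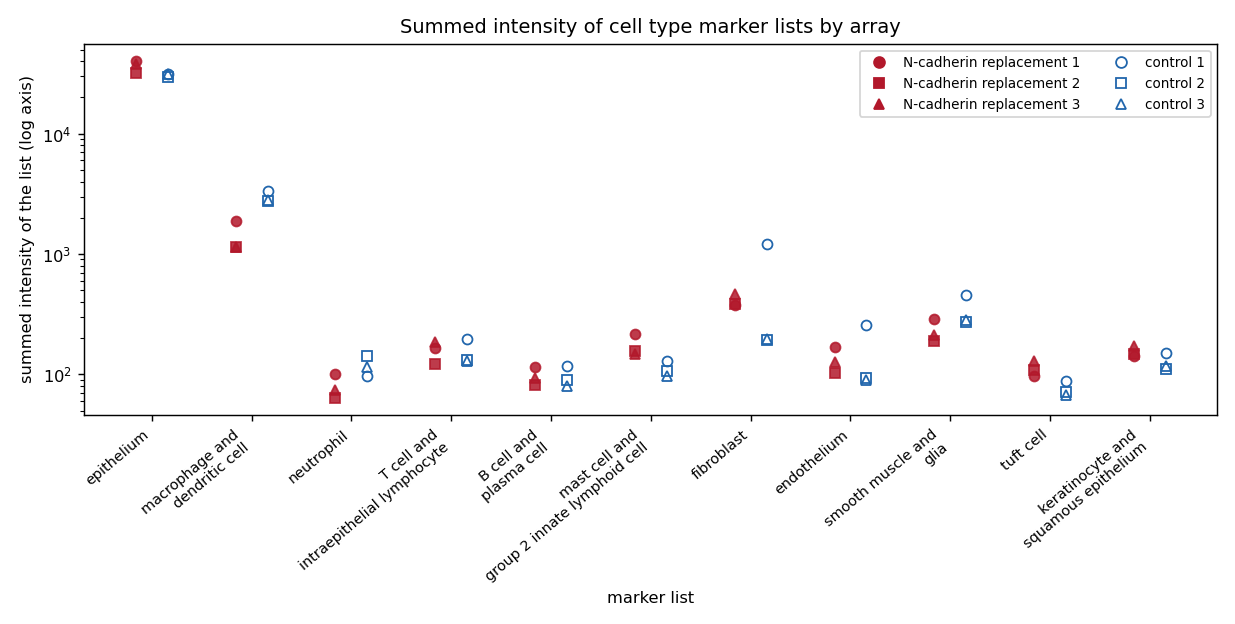
Summed intensity of 11 marker lists on each array, on a log axis, with N-cadherin replacement arrays as filled and control arrays as open symbols. Lists differ in their genes and probes, so sums are read between arrays and not between lists. The macrophage sums, most of which is Csf1r, are lower in all replacement arrays, and control 1 stands apart in the fibroblast list at 1205.

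Beyond the 9 genes, 89 genes of the pathway were listed in 5 groups by role, of which 65 were tested. Of these 4 rose and 3 fell in replacement samples, which is 10.8% of them, near the 9.12% of all genes tested, and their median log2 difference was 0.04. Cxcl5, which rose, and Map3k8, which fell, passed the filter only through the group where they were higher. The 6 genes Nlrp1b, Nlrc4, Naip1, Irak4, Chuk and Nfkb1, were not analysed here.

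Among the other ligands, receptors and decoys of the family 8 of 12 genes were tested, and 0 passed the limma test in either direction, adjusted or at an unadjusted p under 0.05 (median -0.04). Il18bp, the secreted protein that captures interleukin-18, had 33.1, 5.0 and 8.2 in replacement arrays, against 31.5, 30.0 and 45.0 in control arrays (log2 difference -0.74 on floored values, limma adjusted p = 0.219). Il18rap, a chain of the interleukin-18 receptor, gave -0.50 and Il1f9, an epithelial ligand now called interleukin-36 gamma, gave 0.35, both short of the threshold. Il18r1, the other chain of the interleukin-18 receptor, had 3.6, 5.7 and 2.6 in replacement arrays, against 15.9, 43.5 and 53.7 in control arrays. It reached the floor on 2 arrays and so was not tested.

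Of 19 tested inflammasome and processing genes, 2 rose and 1 fell (median 0.00). At an unadjusted limma p under 0.05, 2 were higher and 3 lower. The lower ones included Naip5 (log2 difference -0.69, limma adjusted p = 0.165) and Naip6 (-0.62, limma adjusted p = 0.16). Capn2, a calpain subunit of the protease class that cuts the interleukin-1 alpha precursor, rose to 532.1, 586.8 and 587.5 in replacement arrays, against 59.8, 39.6 and 38.6 in control arrays. That is 11.8-fold higher (log2 difference 3.55, SE 0.258, limma adjusted p = 8.7e-05). Panx1, a channel that releases ATP, rose to 120.8, 132.9 and 135.5 in replacement arrays, against 56.0, 60.2 and 44.6 in control arrays (1.27, SE 0.226, limma adjusted p = 0.00922). Nlrp3, a sensor that starts an inflammasome, fell to 16.8, 19.4 and 6.5 in replacement arrays, against 38.0, 25.5 and 41.2 in control arrays (-1.02, SE 0.234, limma adjusted p = 0.0273), at least 2.02-fold lower since 1 replacement array lay under the floor.

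The core of the interleukin-18 processing machinery was bright on all arrays and did not pass the test. Casp1, the protease that cuts interleukin-18, had 786.3, 952.2 and 749.6 in replacement arrays, against 987.5, 1158.7 and 1181.0 in control arrays (log2 difference -0.38, SE 0.240, limma adjusted p = 0.376). Pycard, the adaptor that recruits it, gave -0.00 (SE 0.285), and Gsdmd, which forms the pore through which the cytokines leave, gave -0.08 (SE 0.248).

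Of 17 tested receptor-proximal signalling genes, 0 rose and 2 fell (median 0.05). Irak2, a kinase of the receptor complex, fell to 289.7, 295.6 and 285.2 in replacement arrays, against 530.3, 678.7 and 622.0 in control arrays (-1.02, SE 0.230, limma adjusted p = 0.0255). The 3 replacement arrays lay within a few units of each other, all under the lowest control. Map3k8, a kinase upstream of ERK, was under the floor on all replacement arrays, against 31.1, 36.0 and 26.5 in control arrays, at least 1.94-fold lower (limma adjusted p = 0.0279). It passed the filter only through its control arrays, and its replacement values were all set to 16 in the fit. With a floor of 32 its log2 difference was -0.04. Tollip, an inhibitor of the receptor complex, gave -0.67 (limma adjusted p = 0.151), and -0.23 in its other kept probe set. Myd88, the adaptor of the whole family, gave 0.16.

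Of 13 tested NF-kB subunits and inhibitors, 0 passed the adjusted limma test and 2, Relb and Rel, had an unadjusted p under 0.05, both higher. Of all 12994 genes tested, 1482 had such a p in the higher direction and 1677 in the lower one, so nothing is read from these 2. The median log2 difference was 0.21, against -0.02 over all genes, and was not tested. Relb, a subunit of the alternative NF-kB pathway, came closest, with 120.1, 126.3 and 109.5 in replacement arrays, against 58.4, 73.3 and 71.8 in control arrays (0.86, SE 0.235, limma adjusted p = 0.051). Rel, another subunit, gave at least 0.59, since it was under the floor on all control arrays. It passed the filter only through its replacement arrays, which had 20.7, 25.5 and 26.6. Nfkbib, an inhibitor, gave 0.50 in the probe set that stands for it and 0.04 in its other kept probe set. Rela gave 0.08 and Nfkbia, an inhibitor that NF-kB itself induces, gave -0.03.

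Among genes known to be induced by interleukin-1 in epithelia, 8 of 18 passed the filter, 2 of these rose and 0 fell (median 0.06). Cxcl5, a neutrophil attractant, rose to 41.8, 54.3 and 29.3 in replacement arrays, whereas all control arrays lay under the floor, at least 2.53-fold higher (log2 difference 1.34, SE 0.290, limma adjusted p = 0.0209). It passed the filter only through its replacement arrays, and its control values were all set to 16 in the fit. With a floor of 32 its log2 difference was 0.38. Saa1, an acute phase protein, rose to 68.1, 63.6 and 156.2 in replacement arrays, against 2.9, 34.6 and 26.7 in control arrays. With 1 control array under the floor this is at least 3.98-fold higher (1.99, SE 0.422, limma adjusted p = 0.0193). Icam1, an adhesion molecule for leukocytes, gave -0.31 and Cxcl1, another neutrophil attractant, gave -0.02. Il6, Tnf, Csf2, Csf3, Ptgs2, Nos2 and Acod1 lay under the floor on every array, and Ccl20 reached 56.4 and 57.5 in control 2 and control 3 only. Cxcl2 had 18.3, 24.1 and 10.9 in replacement arrays, against 10.2 at most in control arrays. Lcn2 had 24.0, 13.4 and 14.1 in replacement arrays, against 9.4 at most in control arrays. Cxcl2 and Lcn2 had values under the floor in both groups, so the order of their arrays is not read. Like Ccl20 they failed the filter and were not tested.

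Which of these genes passed the threshold depended on single arrays. Capn2 was the only 1 of the 7 genes still called without control 1, and 0 were called without control 2 and control 3, each of which leaves 1 control replicate that is assumed to vary like the others. Without control 1 the log2 differences of several genes that lost their call were close to the reported ones, at 1.32 for Panx1, -1.16 for Irak2, 1.34 for Cxcl5, -0.95 for Map3k8 and -0.90 for Nlrp3, while Saa1 was at 1.53. Of the 7 genes 3 were called without replacement 2 and 2 without replacement 3. A floor of 32 left 3 called, and scaling the arrays to a common median left 4 higher and 0 lower, against 4 higher and 3 lower.

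**Figure D4:**
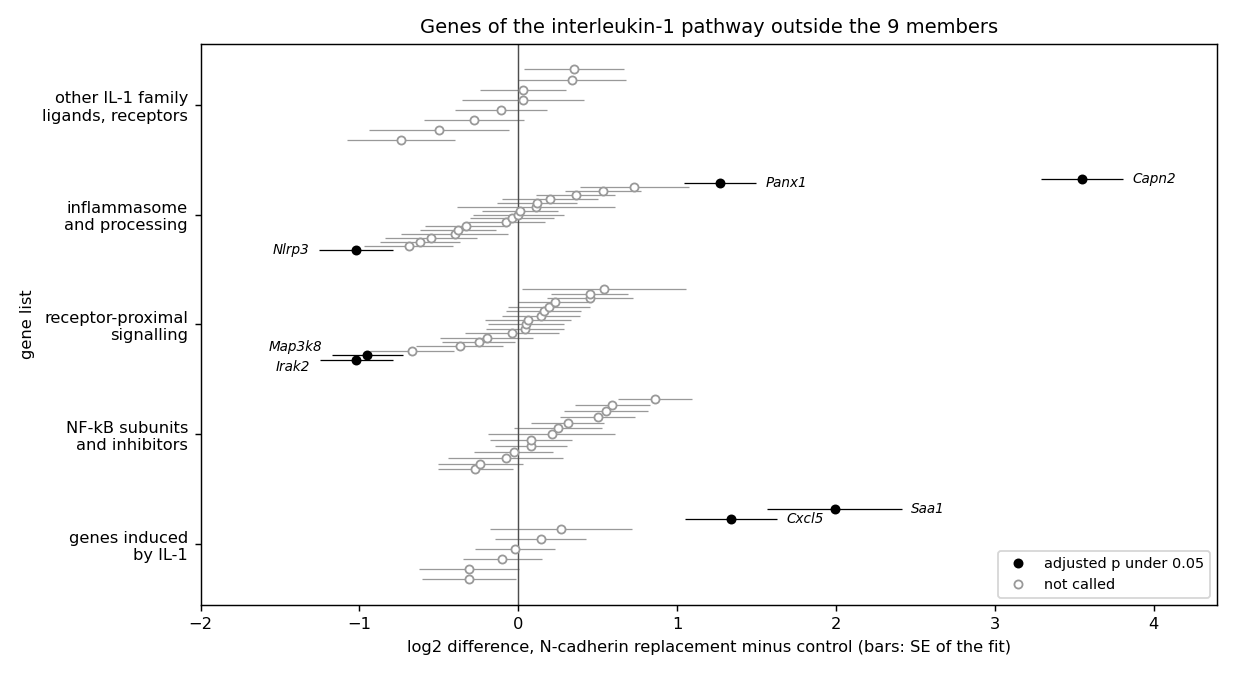
Log2 difference, N-cadherin replacement minus control, of the 65 tested pathway genes outside the 9, grouped by role; bars are the SE of the limma fit and filled points passed an adjusted p of 0.05. Capn2 stands at 3.55, 3 other genes that rose lie between 1.27 and 1.99, and the 3 that fell lie near -1.

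The genes whose pattern over the 6 arrays was most like that of Il1rn, Il33 and Il18 were found by the root mean square distance between centred log2 profiles. For Il1rn these were Clu (0.427), Pmp22 (0.454) and Sptssb (0.480). Clu, the chaperone clusterin, had 1681.4, 1955.1 and 1676.2 in replacement arrays, against 74.5, 55.2 and 62.8 in control arrays, from a probe set of the kind that can cross-hybridize, by its name. Sptssb had 1004.5, 918.6 and 818.1 in replacement arrays and was under the floor in all control arrays, as was Il1rn in the probe set that stands for it.

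For Il33 the nearest were Serpinb5 (0.380), Capn2 (0.488) and Cd44 (0.499). Serpinb5, the epithelial serpin maspin, had 271.9, 341.0 and 274.7 in replacement arrays, against 38.0, 17.0 and 21.0 in control arrays, with control 1 the highest control as for Il33. For Il18 the nearest were Rps6 (0.079), Kctd10 (0.082) and Chmp1a (0.083), whose lowest array was control 1 in each case. Distances for Il18 are small because its own range is narrow.

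Genes next to Il1rn, Il33 and Il18 on their chromosomes were looked up in the order of the RefSeq annotation. Il1rn lies on chromosome 2 beside other genes of the family, and Il1f6, Il1f5, Il1f10, Psd4, Pax8 and Cacna1b, the 3 coding genes on each side, were all tested. Mlana, Ranbp6 and Uhrf2 were tested beside Il33 on chromosome 19, and 6 genes beside Il18 on chromosome 9. Of these 15 neighbours, with 1 probe set per gene, 0 passed the limma test, adjusted or at an unadjusted p under 0.05. Of all 12994 genes tested, 9.12% passed the adjusted test, and 1482 were higher and 1677 lower at an unadjusted p under 0.05. With so few neighbours nothing is read from the count. Plet1, beside Il18, had a log2 difference of 0.02 in the probe set that stands for it, and its other 2 kept probe sets differed from this. Probe set 1423933_a_at had 74.9, 77.4 and 60.4 in replacement arrays and was under the floor in all control arrays, at least 4.41-fold higher (log2 difference 2.14, limma adjusted p = 0.00309 with every probe set tested). Probe set 1454254_s_at had 32.3, 40.9 and 27.3 in replacement arrays and was also under the floor in all control arrays (1.05, limma adjusted p = 0.0544). Both passed the filter only through their replacement arrays.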

How the data were processed

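Per the labels, RNA of epithelial cells was hybridized to 1 Affymetrix array per sample. The deposited table holds linear probe set intensity values, which the authors had scaled: after trimming 2% at each end, each array averages 100. GCRMA and limma are named, per the submitters' processing notes, and how these values were summarised is not stated in the sources used here. The table held 45101 probe sets and 28 zeros. From the deposited values log2 intensity was computed after a floor of 16.

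A probe set was kept where 3 of 6 arrays reached 16 (26664 kept), and the one with the highest mean floored log2 value stood for its gene. An earlier run took the highest mean linear intensity, and the rule was then changed to that of an earlier analysis of these data. Names came from the platform annotation, with 34741 probe sets matched by Entrez identifier to assembly GRCm38.p6. limma 3.58.1 in R 4.3.3 (lmFit, eBayes) compared 3 replacement with 2 control replicates, with Benjamini-Hochberg adjustment and a threshold of 0.05. Replicate numbers were not used to pair the arrays. Deviations of same-numbered arrays correlated at 0.092, 0.026 and 0.055, and those of differently numbered arrays at -0.096 to 0.068. With so few arrays these weak correlations cannot exclude a pairing. Figures used matplotlib 3.10.9. The fit was tested on simulated data.

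The members, lists, motifs and tests were chosen with earlier results of these data known, and the alternatives on sex and on the probe set rule after seeing the data. Named genes are all members, Cdh1 and Cdh2, the genes called in each pathway list (up to 6) or the 3 with the smallest p, and the 3 nearest profiles of Il1rn, Il33 and Il18; other pathway genes, marker genes and neighbours were named after their values were seen. Precision is limited by how few arrays there are; arrays have no read depth.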

Additional observations from a re-analysis of the deposited data

Results flagged for a closer look

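Il18rap and Icam1 moved in opposite directions in the sexes, in every array of each. Il18rap had a mean log2 difference, replacement minus control, of -0.75 in females and 0.09 in males, and Icam1 had 0.21 in females and -0.91 in males. Females are 2 replacement arrays and 1 control array, males 1 and 2, and the 2 male controls are the pair counted as 1 replicate. For Il18rap, replacement 2 had 40.7 and replacement 3 had 15.5, under the floor, against 43.0 in control 1. In males replacement 1 had 52.2, against 50.1 and 47.7 in control 2 and control 3, so the gaps were narrow apart from replacement 3. The difference between the sexes was not tested.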

How the results depend on the processing

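Il1rn, Il33 and Il18 kept a difference above 0 in all 24 alternatives. In these genes every replacement array lay above every control array, so leaving out arrays or splitting by sex could not reverse the sign. The kept sign is therefore no test of the differences. The number of genes called moved widely. Against 1185 genes called, there were 2352 with all 6 arrays as separate replicates, 2102 with the replicate block on all 6 arrays, 290 and 160 with floors of 32 and 64, 747 with a floor of 1, 162 with no filter, 4181 with array weights and 1191 with the brightest linear probe set. Leaving out 1 array gave 11 (control 1) to 1660 (replacement 1), with 533 without replacement 2 and 374 without replacement 3, and 4 were called without control 2 and control 3. Against 7 pathway genes called, there were 9 with the replicate block, 3 with a floor of 32, 2 with a floor of 64, 3 with no filter, 4 with a common median, 18 with array weights, 1 to 9 without 1 array and 0 without control 2 and control 3. Zc3h12a (log2 difference 0.55) was also called with the brightest linear probe set (0.95, limma adjusted p = 0.0308). Relb passed in 6 of 22 alternatives and Nlrp3, the least stable call, was lost in 11. The median of the members, 0.35, was 0.32 with the replicate block, 0.24 and 0.45 with floors of 64 and 1, 0.17 with no filter, 0.21 with array weights, 0.27 to 0.47 without 1 array and 0.57 without control 2 and control 3. The replicate numbers are not known to pair the arrays, so the block is only an alternative. The cause of these changes was not tested. By construction a higher floor sets dim values equal, and fewer arrays leave fewer degrees of freedom. What part either had in these counts was not tested. Signal near the floor limits Il1a, Il1b, Il1rap and the receptors.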
